A study of Homo sapiens with 15 samples.

Results

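BRINP2, STAC2, SPP1, PARP8 and SCGB2A2 are 5 of the 61552 Ensembl genes counted in RNA-seq libraries of MDA-MB-468, an established human breast cancer cell line that carries many copies of the EGFR gene. The 5 were chosen by their measured counts in lines in which EGFR was knocked down and put back: in each, one line lay far from the other line or from the parental cells. Those line levels are therefore given as a description and carry no test. The study asked how transcription depends on EGFR in the nucleus, by blocking its transport there or by removing its nuclear localization sequence (NLS). It holds 15 libraries, 3 in each of 5 groups. The parental cells were serum starved, stimulated with 10 ng/mL EGF and harvested after 12 h with no drug (EGF group), with 10 μM cSNX1.3, the peptide that blocks binding of EGFR to Sorting Nexin 1 (cSNX group), or with 15 μM erlotinib, an inhibitor of the EGFR tyrosine kinase (ERL group). Both lines carried an IPTG-inducible shRNA, delivered by lentivirus, against the endogenous EGFR transcript, and were then transfected with EGFR-GFP, either wildtype (shEGFR-WT, here the WT line) or mutated in its NLS (shEGFR-NLS, here the ΔNLS line), and treated with EGF. The sources do not say whether either line is a clone or a pool, nor whether the 3 replicates of a group were separate cultures, so p-values measure only the spread between these libraries. Parental cells were not sequenced within the line experiment and no library has the knockdown alone. Knockdown, introduced receptor, IPTG and experiment differ together between a line and the parental cells and cannot be told apart.

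SPP1 encodes osteopontin, a secreted phosphoprotein of bone matrix and milk that many carcinomas also produce and that signals through integrins and CD44. SCGB2A2 encodes mammaglobin A, a small secreted protein of the secretoglobin family made almost only in mammary epithelium and long used as a marker of breast tumour cells. PARP8 is a mono-ADP-ribosyltransferase, BRINP2 is a protein of the nervous system induced by bone morphogenetic protein and retinoic acid, and STAC2 is an adaptor with an SH3 domain that binds L-type calcium channels in excitable cells.

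The promoters of the genes read mainly in the WT line are shown because those genes shared a pattern of counts. RefSeq windows of GRCh38.p14 were matched for 3 of the 5 genes, SPP1, PARP8 and SCGB2A2. Each printed sequence holds the 250 bases before the transcription start, 5′ to 3′ on the + strand, and capitals mark matches to 4 motifs searched on both strands. These were the AP-1 site TGANTCA, the RUNX site AACCACA, the TATA box TATAAA and TTTNNNTTT, an AT-rich form that has been described as a binding sequence of nuclear EGFR. The windows are chr4:87975464-87975713 for SPP1, chr5:50666387-50666636 for PARP8 and chr11:62269908-62270157 for SCGB2A2.
SPP1: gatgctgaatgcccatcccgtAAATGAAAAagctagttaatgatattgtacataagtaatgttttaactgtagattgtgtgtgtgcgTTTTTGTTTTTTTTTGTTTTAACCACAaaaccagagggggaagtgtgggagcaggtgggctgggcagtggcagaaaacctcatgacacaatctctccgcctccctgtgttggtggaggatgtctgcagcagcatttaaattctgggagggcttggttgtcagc
PARP8: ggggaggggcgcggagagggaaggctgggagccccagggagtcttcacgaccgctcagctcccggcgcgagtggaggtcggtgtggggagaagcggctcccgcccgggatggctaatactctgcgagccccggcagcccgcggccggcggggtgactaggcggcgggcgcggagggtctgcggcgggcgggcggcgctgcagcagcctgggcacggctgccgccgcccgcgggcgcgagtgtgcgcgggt
SCGB2A2: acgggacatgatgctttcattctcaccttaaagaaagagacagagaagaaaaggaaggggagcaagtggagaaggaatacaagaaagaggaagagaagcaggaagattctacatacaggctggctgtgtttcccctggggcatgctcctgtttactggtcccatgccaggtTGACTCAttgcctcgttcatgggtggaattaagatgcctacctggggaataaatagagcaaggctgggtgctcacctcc

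The 3 windows had no motif in common. SPP1 held the RUNX site 143 bases before its start, and 7 matches of the AT-rich form. The match at 229 bases before the start stood apart, and the others overlapped, at 163 to 152 bases before it. SCGB2A2 held an AP-1 site 79 bases before its start, and PARP8 held none of the 4 motifs at the start shown. RefSeq lists other starts for PARP8 706 bases upstream and 777 bases downstream of it, and of their windows the upstream one held the AT-rich form once and the other none. Among 35116 human windows of the same length, 6.57% held the AP-1 site, 3.65% the RUNX site, 10.7% the TATA box and 24.4% the AT-rich form. In base composition the PARP8 window was rich in GC, with 78% GC and 35 CpG dinucleotides, whereas SPP1 (44.8% GC, 3 CpG) and SCGB2A2 (48.8% GC, 2 CpG) lay under the median of all windows, 58% GC and 11 CpG. A match of letters is a description of the window and does not show that a factor binds there.

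The libraries held 22915676 to 35900649 read pairs on genes, and levels are given as counts and as CPM, counts relative to a library size that was scaled by the TMM method. EGFR itself was checked first. Its mean level was 4730 ± 360 CPM in EGF, 1340 ± 168 CPM in the WT line and 1730 ± 33.6 CPM in the ΔNLS line (SD, n = 3 each), so that both lines were lower than the parental cells, and these counts include any reads of the introduced receptor. EPCAM, KRT8 and KRT18 were present in all 15 libraries, and SMAD4, deleted in MDA-MB-468, held 1 to 7 counts per library. RB1, also reported as deleted in these cells, held 40 to 114 counts per library, the highest in the ΔNLS line. No library was a copy of another, since the chi-square between replicates was 2.69 to 24.5 per degree of freedom.

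Against the range of the 9 parental libraries, drug-treated ones included, SPP1, PARP8 and SCGB2A2 were above it by at least 4-fold in the WT line and not in the ΔNLS line, BRINP2 was below it in the WT line only, and STAC2 was above it in the ΔNLS line only. The background for this pattern is 14221 genes whose mean reached 1 CPM in a group. Of these, 1.34% lay above that range by as much in the WT line and 0.26% below them, on mean CPM + 0.1. In the ΔNLS line 0.387% lay above and 0.0914% below. Since these contrasts chose the 5 genes, nothing is read from their place in those shares.

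**Figure D1:**
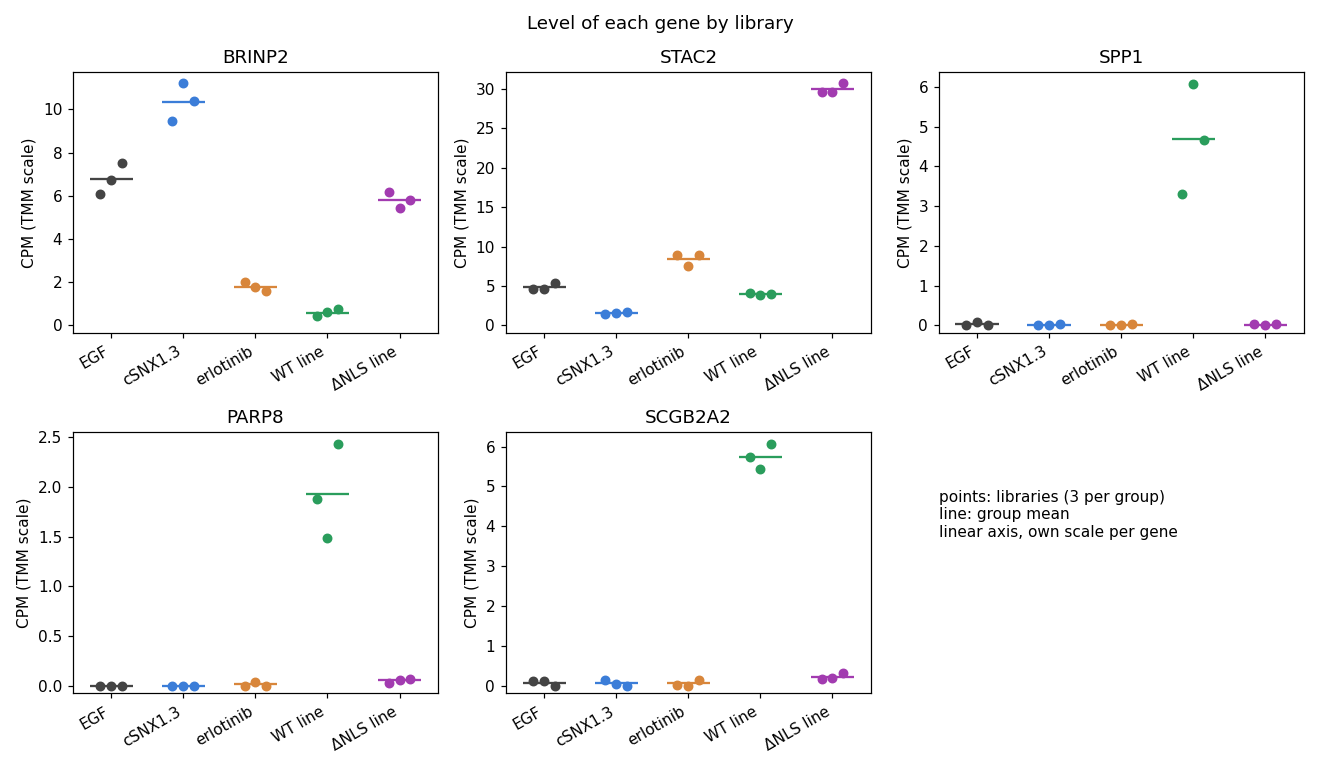
Level of BRINP2, STAC2, SPP1, PARP8 and SCGB2A2 in CPM on the TMM scale (linear y axis, a scale of its own for each gene) in the 3 libraries of each group (points), with the group mean as a line. SPP1, PARP8 and SCGB2A2 stand above 1 CPM in the WT line only, BRINP2 is lowest in the WT line, and STAC2 is highest in the ΔNLS line at 29.6 to 30.7 CPM.

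SPP1 (ENSG00000118785, chr4:87975667-87983532, + strand, 7 exons) was read in the WT line and scarcely elsewhere. Its counts in the WT line were 100, 192 and 168, or 3.31, 6.07 and 4.65 CPM. The counts were 0, 2 and 0 with EGF, 0, 0 and 1 with cSNX1.3, 0, 0 and 1 with erlotinib, and 1, 0 and 1 in the ΔNLS line. Every WT library was above every other library, and the 12 other libraries together held 6 read pairs. Where no library of a group exceeded 3 counts, the group is said to be at the floor, and folds are then bounds computed with 3 counts per library. On that scale SPP1 was at least 40.2-fold higher in the WT line than with EGF, and at least 49.1-fold lower in the ΔNLS line than in the WT line. No fold is given between the ΔNLS line and EGF, both at the floor. The spread within the WT line was wide, 4.67 ± 1.38 CPM (SD, n = 3). A noncoding gene that overlaps SPP1 on the opposite strand had 0 counts in every library, and counting did not use the strand.

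The other genes of the osteopontin family, IBSP, DMP1, DSPP and MEPE, which lie in the same cluster on chromosome 4 and encode proteins of bone and tooth matrix, were not read with SPP1. DMP1 and MEPE had 0 counts in all libraries, and IBSP and DSPP had at most 3. The osteoblast markers BGLAP, SP7 and IBSP were 3 of 3 at or under the floor in every group, and their summed level was at most 0.146 CPM.

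Most of the osteopontin receptors that were expressed were lower in the ΔNLS line than in the WT line. In ΔNLS vs. WT, edgeR's quasi-likelihood test called 41.4% of the 15805 genes tested at a Benjamini-Hochberg adjusted p under 0.05 (3226 higher, 3312 lower). Of 10 receptor genes, ITGA4 and ITGA8 had at most 2 counts in a library and were not tested. ITGB3, with a mean of at most 0.861 CPM in a group, was tested and not called. Of the 8 tested, 6 were lower and 1 higher, with a median log2 fold change of -0.44 against 0.01 over all genes tested. In WT vs. EGF 4 of the 8 were higher and 1 lower, beside 47.1% of all genes called. In ΔNLS vs. EGF 2 were higher and 2 lower, beside 37.2% of all genes called. CD44, the hyaluronan receptor that osteopontin also engages, was at 2020 ± 61.4 CPM in the WT line and 1560 ± 76.7 CPM in the ΔNLS line (log2 fold change -0.38, edgeR's adjusted p = 0.000935). ITGB1 and ITGB5, the integrin chains β1 and β5, fell by 0.63 (standard error 0.07, edgeR's adjusted p = 1.55e-06) and 0.54 (standard error 0.08, edgeR's adjusted p = 3.7e-05) on the log2 scale. ITGA5, whose product pairs with that of ITGB1, fell from 12.4 ± 0.974 to 7.7 ± 1.34 CPM (log2 fold change -0.69, standard error 0.13, edgeR's adjusted p = 0.000375). ITGB1 was at 311 ± 15.3 CPM with EGF, 441 ± 14.1 CPM in the WT line and 286 ± 4.24 CPM in the ΔNLS line. ITGA5 was at 19.1 ± 1.62 CPM with EGF, above both lines.

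ITGA9 went the other way. This integrin chain, which with ITGB1 binds osteopontin cut by thrombin, had 18 to 28 counts per library in the WT line and 194 to 246 in the ΔNLS line. Its level was 0.664 ± 0.229 CPM in the WT line, 7.07 ± 0.169 CPM in the ΔNLS line and 1.04 ± 0.341 CPM with EGF, so that the ΔNLS line stood apart from both. ITGA9 rose 10.7-fold in ΔNLS vs. WT (log2 fold change 3.43, standard error 0.19, edgeR's adjusted p = 1.29e-09) and was higher in the ΔNLS line than with EGF (log2 fold change 2.76, edgeR's adjusted p = 2.88e-08). In WT vs. EGF, where 47.1% of 16524 genes were called (3869 higher, 3916 lower), ITGA9 was not called (log2 fold change -0.66, edgeR's adjusted p = 0.0859). SPP1 and this receptor chain were thus highest in different lines.

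SCGB2A2 (ENSG00000110484, chr11:62270158-62273160, + strand, 3 exons) had 174, 172 and 219 counts in the WT line, or 5.75, 5.44 and 6.06 CPM. In the ΔNLS line it had 6, 6 and 9 counts, with EGF 3, 3 and 0, with cSNX1.3 3, 1 and 0, and with erlotinib 1, 0 and 4. The WT line did not overlap any other group, and the ΔNLS line, at 0.173 to 0.32 CPM, lay far under the WT line and just above the parental libraries. The WT mean was 5.75 ± 0.307 CPM and the ΔNLS mean 0.226 ± 0.0817 CPM (SD, n = 3 each), 25.5-fold lower. Against EGF, at the floor, SCGB2A2 was at least 49.5-fold higher in the WT line and at least 1.94-fold higher in the ΔNLS line. The latter bound rests on 21 read pairs in all.

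Its neighbour and paralog SCGB2A1, 56.2 kb away, which encodes mammaglobin B, was likewise read mainly in the WT line. SCGB2A1 had 16, 29 and 21 counts in the WT line, 4, 2 and 6 in the ΔNLS line, 0 in each EGF library and at most 3 under the drugs. Every WT library was above every ΔNLS library. SCGB2A1 fell in ΔNLS vs. WT by 2.38 on the log2 scale (standard error 0.48, edgeR's adjusted p = 0.000784), and in the WT line it was at least 5.81-fold higher than with EGF. SCGB2A1 passed the filter on low counts through its WT libraries alone, so no support is drawn from that p-value. The 2 genes are related in sequence, and reads common to both could have been divided or left out by the counting. Of 10 secretoglobin genes beside SCGB2A2, only 2 passed the filter on low counts in this fit, SCGB2A1, which was called, and SCGB2B2, which was not. SCGB1D2, whose product joins mammaglobin in a complex in breast, held at most 4 counts in a library.

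Several other markers of luminal breast epithelium were also highest in the WT line. The summed level of 7 such markers was 81.8 to 98.5 CPM per parental library, 113 to 115 CPM in the ΔNLS line and 187 to 190 CPM in the WT line. PGR and ANKRD30A were at 0 throughout. MUCL1, a small mucin of the breast, was at 0.182 ± 0.0919 CPM with EGF, 0.689 ± 0.112 CPM in the ΔNLS line and 9.15 ± 0.742 CPM in the WT line. PIP, the prolactin-induced protein, was at 0.636 ± 0.281, 9.01 ± 0.55 and 25.3 ± 2.99 CPM in the same order. Both genes were thus higher in both lines than with EGF, and higher in the WT line than in the ΔNLS line. In the ΔNLS line MUCL1, like SCGB2A2, lay nearer to the level with EGF than PIP did. The transcription factor genes GATA3 and FOXA1 were at 91 and 58.6 CPM in the WT line against 55.8 and 41.6 CPM in the ΔNLS line. ESR1, the estrogen receptor gene, was an exception, at 4.28 ± 0.22 CPM in the WT line, 7.17 ± 1.09 CPM in the ΔNLS line and 5.82 ± 0.423 CPM with EGF. In bulk RNA, more cells of a kind and more RNA per cell cannot be told apart, and the part of these markers in the result was not tested.

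PARP8 (ENSG00000151883, chr5:50665899-50846519, + strand, 26 exons) had 57, 47 and 88 counts in the WT line, or 1.88, 1.49 and 2.43 CPM. It had 0 counts in all EGF and cSNX1.3 libraries, 0, 1 and 0 with erlotinib, and 1, 2 and 2 in the ΔNLS line. All 3 WT libraries lay above the others, with no overlap. The WT mean was 1.93 ± 0.475 CPM (SD, n = 3), at least 16.6-fold higher than with EGF, and the ΔNLS line was at least 20.3-fold lower than the WT line. A noncoding gene on the opposite strand overlaps PARP8 and held at most 15 counts in a library. PARP8 and SPP1 were the 2 genes of 61552 (0.00325%) that were at the floor in the other 12 libraries and reached 1 CPM in the WT line, a count made after the values were seen. The reverse pattern, at the floor outside the ΔNLS line, was met by 1 gene (0.00162%), BRINP3.

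Of 16 other members of the PARP family, most of which add ADP-ribose to proteins, 14 were tested in ΔNLS vs. WT, 2 rose and 6 fell, and the median log2 fold change was -0.10. TIPARP, which is induced through the aryl hydrocarbon receptor, fell from 33.1 ± 1.64 to 19.8 ± 1.29 CPM (log2 fold change -0.74, standard error 0.08, edgeR's adjusted p = 2.54e-06). The interferon-responsive genes PARP9 and PARP14 fell by 0.57 (standard error 0.08, edgeR's adjusted p = 2.42e-05) and 0.48 (standard error 0.08, edgeR's adjusted p = 0.000151) on the log2 scale. PARP4, whose product is part of the vault particle, fell by 0.53 (standard error 0.07, edgeR's adjusted p = 7.08e-06). PARP1, the main responder to DNA breaks, rose by 0.36 on the log2 scale. PARP6, the close relative of PARP8, had 22.6 ± 0.904 CPM in the WT line and 25 ± 0.778 CPM in the ΔNLS line and was not called (log2 fold change 0.14, edgeR's adjusted p = 0.174). Each of the 8 called members was expressed in both lines, unlike PARP8.

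The 2 rises and 6 falls among the 14 tested PARP genes in ΔNLS vs. WT stand beside 41.4% of all genes called. Since the line contrasts chose PARP8, nothing is read from a shared direction with it. In WT vs. EGF, where 47.1% of 16524 genes were called, 7 of the 14 tested PARP genes rose and 1 fell. In ΔNLS vs. EGF, where 37.2% of 16524 genes were called (3122 higher, 3022 lower), 6 rose and 3 fell. PARP9 was higher than with EGF in both lines, by 0.94 in WT (edgeR's adjusted p = 3.19e-08) and 0.36 in ΔNLS (edgeR's adjusted p = 0.00327) on the log2 scale. Of the 6 genes whose products take ADP-ribose off again, 1 was called in ΔNLS vs. WT. It was ADPRH, which acts on arginine (log2 fold change -0.46, standard error 0.17, edgeR's adjusted p = 0.0388).

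BRINP2 (ENSG00000198797, chr1:177170958-177282422, + strand, 8 exons) was low in the WT line. Its counts were 13, 19 and 27 in the WT line, or 0.43, 0.601 and 0.747 CPM. They were 214, 177 and 164 in the ΔNLS line, or 6.17, 5.45 and 5.83 CPM, and 148, 176 and 204 with EGF, or 6.08, 6.72 and 7.54 CPM. The ΔNLS and EGF libraries overlapped, and the WT libraries lay under both and under every drug-treated library. The group means were 0.592 ± 0.159 CPM in the WT line, 5.82 ± 0.359 CPM in the ΔNLS line and 6.78 ± 0.736 CPM with EGF (SD, n = 3 each). BRINP2 was thus 11.4-fold lower in the WT line than with EGF and 9.82-fold higher in the ΔNLS line than in the WT line, while ΔNLS and EGF differed 1.17-fold.

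BRINP3, a paralog of BRINP2, was also higher in the ΔNLS line than in the WT line, but from a different starting level. Its counts were 40, 42 and 31 in the ΔNLS line and 3, 1 and 2 in the WT line. In the parental cells 8 of 9 libraries had 0 counts and the remaining one, with cSNX1.3, had 2. The ΔNLS line alone was above the floor, with 1.18 ± 0.0989 CPM. BRINP3 passed the filter on low counts through its ΔNLS libraries alone, so no support is drawn from its p-value. It was at least 12.8-fold higher in the ΔNLS line than in the WT line (edgeR's adjusted p = 1.17e-06 in ΔNLS vs. WT) and at least 10.2-fold higher than with EGF. So the ΔNLS line held BRINP2 near the level with EGF and BRINP3 above a parental level at or near 0. BRINP1 had 1 to 5 counts in every library. Markers of neurons, the cells in which these genes are best known, were between 1.24 and 2.34 CPM in sum over 4 genes in every library, and no line stood apart in them.

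STAC2 (ENSG00000141750, chr17:39210541-39225945, − strand, 11 exons) was the gene of the 5 that was set apart in the ΔNLS line. Its counts there were 1027, 962 and 864, or 29.6, 29.6 and 30.7 CPM. In the WT line they were 124, 122 and 143, or 4.1, 3.86 and 3.95 CPM, and with EGF 113, 120 and 147, or 4.64, 4.58 and 5.44 CPM. Each ΔNLS library lay above all 12 others. The ΔNLS mean, 30 ± 0.644 CPM, was 7.55-fold the WT mean of 3.97 ± 0.121 CPM and 6.14-fold the EGF mean of 4.89 ± 0.477 CPM (SD, n = 3 each). The WT line was 1.23-fold lower than EGF, without overlap, but lay within the range of the 9 parental libraries once the drug groups are included.

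Among the partners of STAC2 the largest called fold in ΔNLS vs. WT was 1.94, that of CACNB1. Of 14 genes of the STAC family and of L-type calcium channel subunits, 6 were tested in ΔNLS vs. WT, 3 rose and 1 fell, with a median log2 fold change of 0.45. Of all genes tested, 41.4% were called in this contrast. CACNB1 and CACNB3, auxiliary β subunits, rose by 0.96 (standard error 0.26, edgeR's adjusted p = 0.00656) and 0.41 (standard error 0.08, edgeR's adjusted p = 0.000707) on the log2 scale, and CACNA1D, a pore-forming subunit, rose by 0.49 (standard error 0.18, edgeR's adjusted p = 0.042). CACNB1 was lower in both lines than with EGF, at 1.38 ± 0.435 CPM in the WT line and 2.72 ± 0.848 CPM in the ΔNLS line against 5.65 ± 1.23 CPM, so that its rise in ΔNLS vs. WT did not take it above the parental level, as STAC2 was. STAC, the widely expressed paralog, fell by 0.30 (standard error 0.07, edgeR's adjusted p = 0.00261), from 92.3 ± 4.92 to 74.9 ± 2.62 CPM. The pore subunits CACNA1S and CACNA1C, those of skeletal and cardiac muscle, held at most 3 counts in a library. Of the skeletal muscle markers, 2 of 4 were at or under the floor in each line, and their sum was at most 1.2 CPM.

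**Figure D2:**
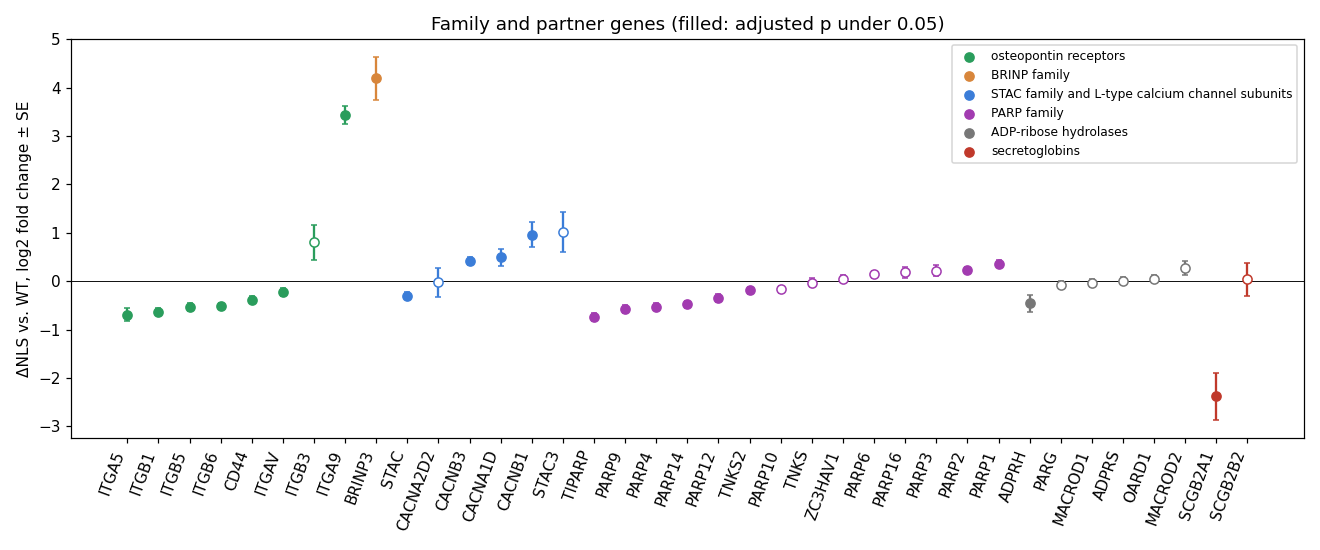
Log2 fold change (± standard error) in ΔNLS vs. WT of the family and partner genes that passed the filter, coloured by list, with filled points for an edgeR adjusted p under 0.05. Of 37 genes 7 were higher and 15 lower, beside 41.4% of all genes called, and ITGA9 (3.43) and SCGB2A1 (-2.38) stand far from the rest. These counts include SCGB2A1 and BRINP3, from whose p-values no support is drawn. BRINP3 is drawn at its fitted value, 4.19, and its bound is 3.68.

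In all, 22 of these 37 tested family and partner genes were called in ΔNLS vs. WT, beside 41.4% of all genes tested. The 22 include SCGB2A1 and BRINP3, from whose p-values no support is drawn. Their median log2 fold change was -0.03. The lists were written with earlier results of these data known.

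The effect of the drugs on the 5 genes in parental cells was tested. The choice of the genes compared each line with the parental groups and not the drug groups with one another, but the same 9 libraries served as its parental level, so these p-values are not independent of that choice. BRINP2 and STAC2 passed the filter on low counts in the 9 parental libraries. SPP1, PARP8 and SCGB2A2 did not, and with at most 4 counts in a library a drug effect on them was not detectable at this depth. BRINP2 and STAC2 were both called in both comparisons. The share of all 15738 tested genes that was called was 6.07% in cSNX1.3 vs. EGF (532 higher, 424 lower) and 44% in erlotinib vs. EGF (3589 higher, 3343 lower). Both comparisons use the same EGF libraries.

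BRINP2 rose with cSNX1.3 and fell with erlotinib. Its counts were 207, 269 and 284 with cSNX1.3, or 9.48, 11.2 and 10.4 CPM, and 67, 44 and 45 with erlotinib, or 1.99, 1.8 and 1.59 CPM. Neither group overlapped the EGF libraries given above. The rise with cSNX1.3 was 1.53-fold (log2 fold change 0.61, standard error 0.14, edgeR's adjusted p = 0.0144), and the call was lost without EGF replicate 1 (edgeR's adjusted p = 0.096) or without cSNX1.3 replicate 2 (edgeR's adjusted p = 0.0994). The fall with erlotinib was 3.75-fold (log2 fold change -1.91, standard error 0.16, edgeR's adjusted p = 1.69e-07). Even with erlotinib, BRINP2 stayed above each library of the WT line.

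STAC2 moved in the opposite directions. With cSNX1.3 it had 32, 39 and 48 counts, or 1.47, 1.63 and 1.75 CPM, and with erlotinib 302, 184 and 252 counts, or 8.95, 7.52 and 8.88 CPM. The cSNX1.3 libraries lay below and the erlotinib libraries above all EGF libraries. STAC2 fell with cSNX1.3 by 1.59 on the log2 scale, or 3.01-fold (standard error 0.17, edgeR's adjusted p = 4.61e-05), and rose 1.74-fold with erlotinib (log2 fold change 0.80, standard error 0.15, edgeR's adjusted p = 0.000392). Of the 5 groups STAC2 was lowest with cSNX1.3, at 1.61 ± 0.143 CPM, and highest in the ΔNLS line, at 30 ± 0.644 CPM. These 2 groups also differ in knockdown, introduced receptor, IPTG and experiment, so their levels do not compare the peptide with the NLS mutation. For BRINP2 the lowest level was that of the WT line and the highest that with cSNX1.3.

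**Figure D3:**
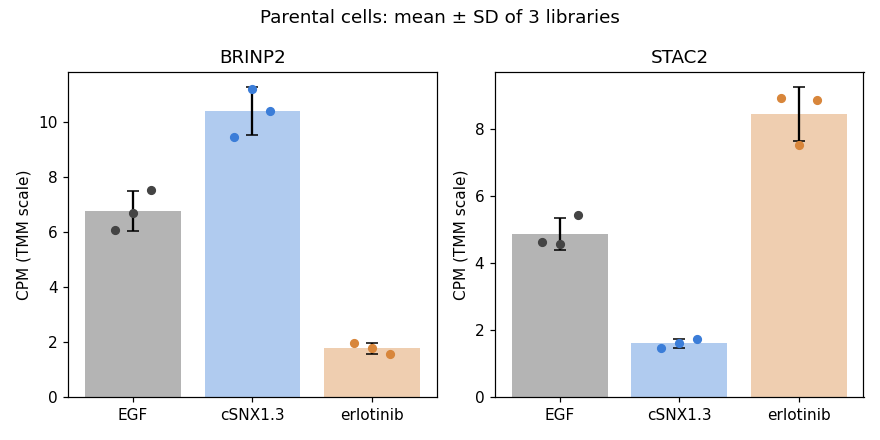
Mean level of BRINP2 and STAC2 in CPM on the TMM scale (bars, from 0, with SD error bars and the 3 libraries as points) in parental cells with EGF, cSNX1.3 or erlotinib. BRINP2 goes from 6.78 to 10.4 CPM with cSNX1.3 and 1.79 CPM with erlotinib, and STAC2 from 4.89 to 1.61 and 8.45 CPM.

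Of the 34 family and partner genes tested, 4 rose and 1 fell with cSNX1.3, and 8 rose and 7 fell with erlotinib. Of all genes tested, 6.07% were called with cSNX1.3 and 44% with erlotinib. The osteopontin receptors gave 3 of the 4 rises with cSNX1.3, among them CD44 (log2 fold change 0.73, edgeR's adjusted p = 0.000567) and ITGA5 (log2 fold change 0.69, edgeR's adjusted p = 0.00111). The 1 fall was also that of a receptor gene, ITGAV (log2 fold change -0.49, edgeR's adjusted p = 0.00689). ITGA5 fell with erlotinib (log2 fold change -1.66, edgeR's adjusted p = 3.56e-08), as BRINP2 did, while CD44 missed the threshold there (log2 fold change -0.28, edgeR's adjusted p = 0.0511). In the STAC and calcium channel list, where 6.07% of all genes is the background, the lowest adjusted p with cSNX1.3 was that of STAC (log2 fold change -0.19, edgeR's adjusted p = 0.277). With erlotinib STAC fell (log2 fold change -0.48, edgeR's adjusted p = 0.000687), opposite to STAC2, and PARP9 rose (log2 fold change 0.66, edgeR's adjusted p = 6.5e-05).

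Levels were also divided by the length covered by all annotated exons of a gene, 7250 bases for SPP1 and 1509 for SCGB2A2. This length can exceed that of the transcript made, so the order of different genes depends on it. On this scale SCGB2A2 was the highest of the 5 in the WT line, at 3.81 CPM per kb. There it was followed by STAC2 at 1.16, SPP1 at 0.645, PARP8 at 0.191 and BRINP2 at 0.132 CPM per kb, and the libraries of PARP8 and BRINP2 overlapped on this scale. In the ΔNLS line STAC2 led at 8.74 CPM per kb, ahead of BRINP2 at 1.29 and SCGB2A2 at 0.15 CPM per kb. With EGF only BRINP2, at 1.51 CPM per kb, and STAC2, at 1.42 CPM per kb, were above the floor, and they overlapped.

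Set against all 14221 genes, the 5 fell into 3 classes. Above the parental range by at least 4-fold in the WT line and not in the ΔNLS line, as SPP1, PARP8 and SCGB2A2 were, lay 150 genes (1.05%). Below it in the WT line and not in the ΔNLS line, as BRINP2 was, lay 33 genes (0.232%), and above it in the ΔNLS line and not in the WT line, as STAC2 was, lay 14 genes (0.0984%). Another 41 genes were above it in both lines and 4 below it in both, no gene was above it in one line and below it in the other, and 13970 genes (98.2%) were outside it in neither. The WT line thus held 228 genes outside the range and the ΔNLS line 68.

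**Figure D4:**
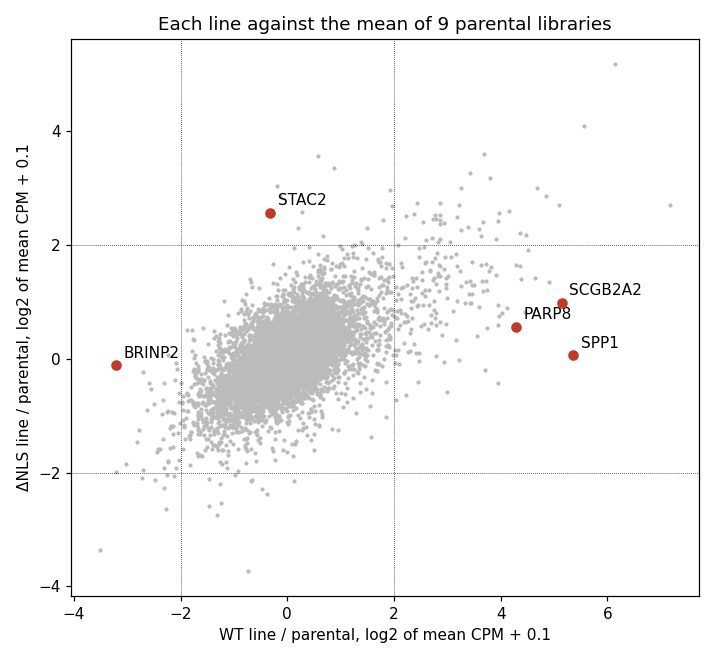
Log2 ratio of the mean CPM + 0.1 of the WT line (x axis) and of the ΔNLS line (y axis) to the mean of the 9 parental libraries, 1 point per gene for 14221 genes, with dotted lines at 4-fold. SPP1, PARP8 and SCGB2A2 lie to the right near y = 0 to 1, BRINP2 to the left near y = 0, and STAC2 above the upper dotted line near x = 0.

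Genes near the 5 on their chromosomes were examined for whether they moved with them. Of the 30 nearest expressed protein-coding genes, 3 on each side of each gene, 14 (46.7%) were called in ΔNLS vs. WT, 4 higher and 10 lower, beside 41.4% of all genes. The 14 include SCGB2A1 and ITGA1, from whose p-values no support is drawn. Around SPP1, 4 of 6 were called and all 4 were lower in the ΔNLS line, as SPP1 was. The nearest of them was PKD2, the polycystin 2 gene 24.1 kb away (log2 fold change -0.40, edgeR's adjusted p = 0.00666), followed by PPM1K at 274 kb (-1.27, edgeR's adjusted p = 0.00942). NUDT9, on the other side of SPP1, fell least (-0.36, edgeR's adjusted p = 0.0136). HERC6, an interferon-responsive ligase 395 kb away, fell most (log2 fold change -1.30, standard error 0.10, edgeR's adjusted p = 4.14e-08), with 21.8 CPM in the WT line, 8.89 in the ΔNLS line and 6.12 with EGF. PKD2, NUDT9 and HERC6 were read in the parental cells, where SPP1 was at the floor.

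Around SCGB2A2 the called genes went both ways. Beside SCGB2A1, AHNAK at 160 kb fell (log2 fold change -0.84, edgeR's adjusted p = 1.03e-06), while ASRGL1 at 64.3 kb and INCENP at 117 kb rose (0.77, edgeR's adjusted p = 3.7e-06, and 1.38, edgeR's adjusted p = 7.29e-09). Near STAC2 both called genes were higher in the ΔNLS line, CACNB1 at 12.8 kb and RPL19, a ribosomal protein gene at 5.7 kb (log2 fold change 0.20, edgeR's adjusted p = 0.0456). FBXL20, on the other side of STAC2 at 26.7 kb, had a log2 fold change of -0.02 and was not called. BRINP2 and PARP8 lie in regions with few expressed genes. The nearest called genes were 1440 kb from BRINP2 (RALGPS2, -0.58, edgeR's adjusted p = 0.000129) and 1940 kb from PARP8 (ITGA1, -1.25, edgeR's adjusted p = 0.0236), followed near PARP8 by ITGA2 at 2140 kb (-0.98, edgeR's adjusted p = 3.04e-08). ITGA1 was low, at 0.755 CPM in the WT line and 0.305 CPM in the ΔNLS line, so no support is drawn from its p-value.

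**Figure D5:**
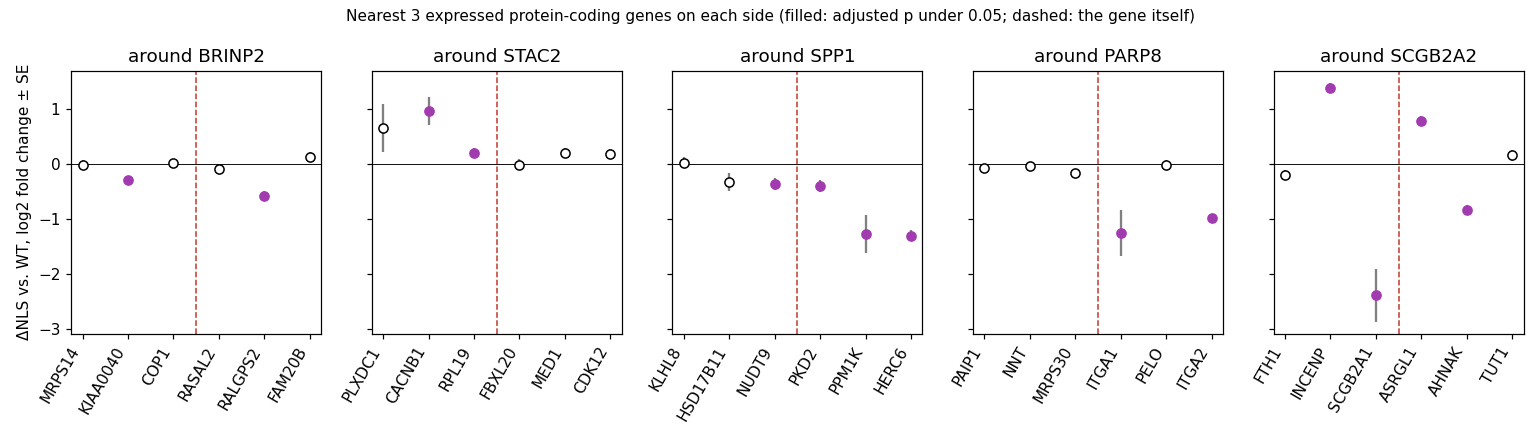
Log2 fold change (± standard error) in ΔNLS vs. WT of the nearest 3 expressed protein-coding genes on each side of BRINP2, STAC2, SPP1, PARP8 and SCGB2A2 (dashed line), in order along the chromosome and not to scale, with filled points for an edgeR adjusted p under 0.05. The called neighbours of SPP1 lie between -0.36 and -1.30, those of STAC2 at 0.20 and 0.96, and those of SCGB2A2 on both sides of 0.

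For each gene the most similar pattern across the 15 libraries was found by Pearson's r of log2 CPM, given as a description over libraries that share groups. BRINP2 was most like STC2 (r = 0.973), the gene of the secreted glycoprotein stanniocalcin 2, which had 184 CPM with EGF, 278 with cSNX1.3, 102 with erlotinib, 161 in the ΔNLS line and 58.6 in the WT line. Next were TPM2 (r = 0.967) and UBE2S (r = 0.966). STAC2 was most like CCDC34 (r = 0.982), at 54.1, 39.2, 63.3, 92 and 52.9 CPM in the same order of groups, then ARHGEF39 and MIS18A (r = 0.967 each). Both leading genes varied over a smaller range than the gene they resembled.

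SPP1, PARP8 and SCGB2A2 resembled genes that were high in the WT line. SPP1 was most like VILL (r = 0.977), CDC42EP3 (r = 0.975) and AIM2 (r = 0.973), the last a sensor of DNA in the cytosol, at 0.0378 CPM with EGF, 0.145 in the ΔNLS line and 2.43 in the WT line. PARP8 was most like STS, the steroid sulfatase gene (r = 0.983), GASK1B (r = 0.978) and GBP3 (r = 0.975). SCGB2A2 was most like MUCL1 (r = 0.968), then IL18 (r = 0.961) and STS (r = 0.957). PARP8 and SPP1 correlated with each other at r = 0.967 and PARP8 and SCGB2A2 at r = 0.955. For these 3 genes the correlations rest on the WT line against 12 libraries near the floor, and none of their 10 most similar genes was among the first 10 by rank correlation. With a prior count of 0.5 in place of 2, 7 of the 10 remained for SPP1, 6 for PARP8 and 3 for SCGB2A2.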

How the data were processed

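RNA of 15 MDA-MB-468 libraries in 5 groups, taken from the sample labels, was analysed. Per their methods, the authors used STAR to align trimmed reads to GRCh38 and featureCounts, unstranded, to count read pairs per Ensembl gene, and they deposited these raw counts with no normalization. The annotation release is not given in the sources used here. Names, coordinates and exon lengths came from GENCODE 44, in which 61399 of 61552 IDs were found. Promoter windows came from RefSeq (GRCh38.p14).

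The counts were fitted by edgeR 4.0.16 under R 4.3.3 (TMM scaling, filterByExpr by group, robust quasi-likelihood test, Benjamini-Hochberg adjusted p under 0.05). Drug comparisons were fitted in 9 libraries, ΔNLS vs. WT in 6, and each line vs. EGF in all 15. For the 5 genes only the drug contrasts were tested, in libraries that had also served as the parental level when the genes were chosen. The line contrasts, which chose them, were not tested. Depth was 22915676 to 35900649 counts per library, and floors of 3 counts cover counting error only. Scripts were tested on simulated data.

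The 5 genes and the lists were chosen with earlier results of these data known. The genes named are the 5, EGFR, in each list up to 4 genes called in ΔNLS vs. WT with the largest change and a mean of at least 1 CPM in a group, the 3 genes most correlated with each of the 5 (log2 CPM with a prior count of 2) and the nearest 3 expressed protein-coding genes on each side. Other list members and markers named were chosen after their values were seen. Alternatives were DESeq2's size factors, DESeq2 1.42.0 as the test, CPM per total count, no filter on low counts or 10 counts required in every library, other sets of groups in a fit, a block for the replicate number, a threshold of 0.01, other folds, pseudocounts, prior counts and rank correlation, and leaving out each replicate. The count of genes at the floor outside a line was added after seeing the data.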

Additional observations from a re-analysis of the deposited data

How the results depend on the processing

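The log2 ratios of the 5 genes between the lines and EGF kept their direction under every scaling and with each replicate left out. STAC2 in ΔNLS vs. WT was 2.99 with CPM per total count (2.92 with TMM), and 2.90 to 2.94 with a replicate left out. BRINP2 in cSNX1.3 vs. EGF (0.61, edgeR's adjusted p = 0.0144) missed an adjusted p under 0.01 and ranged from 0.54 to 0.70 with a replicate left out. For it edgeR's adjusted p was 0.0246 with the replicate number as a block, and DESeq2's adjusted p was 0.00394. The other 3 drug calls of BRINP2 and STAC2 held under all alternatives run. The genes called in cSNX1.3 vs. EGF were 956, 470 at an adjusted p under 0.01, 841 with the block and 526 to 892 with a replicate left out (531 without EGF replicate 1, 592 without EGF replicate 3, 526 without cSNX1.3 replicate 2), and the family and partner genes 5, 3 and 3 to 5 (3 when EGF replicate 1 or 3 or cSNX1.3 replicate 1 was left out). The genes outside the parental range by at least 4-fold were 228 in the WT line, 75 at 8-fold and 133 with a pseudocount of 0.5 CPM, and 68, 9 and 25 in the ΔNLS line. The cause of these shifts other than the stricter threshold or fewer samples was not tested. With the block 6707 genes were called in erlotinib vs. EGF, 5766 in ΔNLS vs. WT, 7903 in WT vs. EGF and 6298 in ΔNLS vs. EGF, and no call of BRINP2 or STAC2 changed. Libraries of the same number did not deviate together (correlations of -0.20 to 0.25), so the numbers were not taken as pairs.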

Other observations

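PECAM1, an adhesion molecule of endothelial cells, was higher in both lines than in the parental cells, at 5.18 ± 0.267 CPM in the ΔNLS line and 5.17 ± 0.638 CPM in the WT line against group means of 1.17 to 1.86 CPM. The other endothelial markers did not share this pattern: CDH5 was at 0.371 CPM in the WT line, 0.899 CPM in the ΔNLS line and 0.404 CPM with EGF, and VWF was highest with erlotinib, at 0.681 CPM. The sum of the 3 was 1.11 to 2.54 CPM in the parental libraries, 6.01 to 6.68 CPM in the ΔNLS line and 5.06 to 6.86 CPM in the WT line. Macrophage markers were at 34.1 to 64.7 CPM in the parental cells and 49.8 to 64 CPM in the lines, with CD163 at 0 in every library, and leukocyte markers summed to at most 0.622 CPM. Fibroblast markers summed to 8.25 to 21.3 CPM over the groups and were lowest in the ΔNLS line. Nearly all of this sum was COL1A1, with group means of 9.41 to 20.6 CPM. COL1A2, COL3A1, DCN and LUM held at most 8 counts in a library. What these marker levels come from was not tested.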
